A study of Homo sapiens with 54 samples.

Results

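The genes described here are 9 components and partners of the B cell antigen receptor: CD79A, CD79B, CR2, CD22, CD72, MS4A1, SYK, BTK and BLNK. They were chosen by name, and each was read from the probe sets of the array whose only gene symbol is that name. This gave 1 probe set per gene, 9 of 19461 probe sets with a single symbol, or 9 of 18418 genes. Expression had been measured with Affymetrix Gene 1.0 ST arrays in 9 established human cell lines without calcitriol (0 h) and after 8 h and 36 h with calcitriol, the hormonal form of vitamin D. The series set cells stimulated with calcitriol against untreated cells, and its question was which genes the hormone changes in each kind of cell.

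The 4 lymphoblastoid lines, GM07019, GM07348, GM10854 and GM12878, are B cells transformed with Epstein-Barr virus. The 5 other lines were 2 of fibroblasts (AG09309 and AG09319), HL60 from a promyelocytic leukaemia, K562 from a chronic myeloid leukaemia and HepG2 from a hepatoma. Each line had 2 arrays at each time, which makes 27 groups and 54 arrays. Calcitriol was used at a dose not given in the sources used here. Cultures left untreated for the same time were not analysed here, so calcitriol and time in culture cannot be told apart in any change. The sample titles mark the replicates with the letters BR, unexplained, and do not say whether the 2 arrays came from separate cultures. Where arrays were the replicates, a p-value covers only the spread between arrays of a group, which may be technical. Where lines were the replicates, it covers the spread among these lines. The titles of the GM10854 arrays name another line than their cell line field, and the field was used.

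Array medians lay between 4.98 and 5.31 on the log2 scale. In 3 groups 1 array stood apart from the others of its line: replicate 1 of K562 at 36 h, replicate 2 of HepG2 at 0 h and replicate 2 of AG09319 at 8 h. Marker lists matched the labelled cells. The mean level of 11 fibroblast genes at 0 h was 9.14 in AG09309 and 8.99 in AG09319 and at most 4.81 elsewhere, that of 7 promyelocyte genes was highest in HL60 (8.76), that of 6 erythroid genes in K562 (8.50) and that of 11 hepatocyte genes in HepG2 (9.99). The mean level of 8 measured B cell markers ran from 7.17 to 7.29 over the lymphoblastoid lines and from 5.27 to 5.98 over the rest. The AG09309 arrays at 0 h also held leukocyte transcripts. Comparisons of the lymphoblastoid with the other lines that rest on these arrays are given with AG09309 and, for some members, without it. The correlations over all 27 groups are given only with it.

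The B cell antigen receptor is a membrane immunoglobulin held in a complex with the signalling chains CD79A and CD79B, whose cytoplasmic tails carry the tyrosine motifs that start the signal. CR2 (CD21), the receptor for complement fragments and for Epstein-Barr virus, is part of a coreceptor that lowers the threshold for activation, while CD22 and CD72 recruit a phosphatase that damps the signal, and MS4A1 (CD20) is a B cell surface protein that supports calcium entry. Once the tails are phosphorylated the kinase SYK binds them and phosphorylates the adaptor BLNK, which gathers BTK and phospholipase C gamma. SYK and BTK are used by other blood cells too, in particular by cells of the myeloid lineage.

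A promoter sequence from RefSeq (GRCh38.p14) was at hand for 7 of the 9 genes, those other than CD79B and MS4A1. The 250 bases before the start of CD79A (19:41877029-41877278, plus strand) and of CR2 (1:207454078-207454327, plus strand) are shown 5′ to 3′ because these were the genes that changed in the lymphoblastoid lines. Capitals mark the core letters of a binding element for the calcitriol receptor, GGTCA or GTTCA, on either strand.
CD79A: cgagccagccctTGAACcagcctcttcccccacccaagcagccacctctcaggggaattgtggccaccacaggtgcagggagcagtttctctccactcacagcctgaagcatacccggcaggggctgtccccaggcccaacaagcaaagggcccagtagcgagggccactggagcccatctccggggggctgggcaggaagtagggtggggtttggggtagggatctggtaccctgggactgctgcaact
CR2: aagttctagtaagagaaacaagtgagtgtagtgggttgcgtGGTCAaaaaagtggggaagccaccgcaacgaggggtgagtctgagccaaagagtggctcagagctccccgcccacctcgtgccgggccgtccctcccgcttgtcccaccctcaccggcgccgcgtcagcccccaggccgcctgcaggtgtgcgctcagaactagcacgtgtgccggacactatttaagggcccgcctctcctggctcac
The CD79A window held 1 such core, read on the reverse strand at bases -238 to -234 from the start, and the CR2 window held 1 on the forward strand at bases -209 to -205. Of 35116 promoters of 300 bases, 250 before and 50 after the start, 55.1% held at least 1 core. A pair of these 5-letter cores in the same orientation with 4 bases between them, the usual spacing for that receptor counted from core to core, was found in 0.15% of promoters and the octamer ATGCAAAT, known from immunoglobulin promoters, in 1.77%. Neither was in any of the 10 windows of the 7 genes, which says only that these letters are not in these windows.

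CD79A was the gene of the complex that rose most in the lymphoblastoid lines. In GM07019 its level on the log2 scale was 8.01 and 7.99 on the 0 h arrays, 8.21 and 8.85 at 8 h and 9.51 and 9.42 at 36 h. In GM07348 it was 7.74 and 7.35, then 7.53 and 7.39, then 8.88 and 8.83. Both lines had their highest values at 36 h, with no overlap with the other times. In GM10854 the level was 8.24 and 8.07 at 0 h, 8.62 and 8.64 at 8 h and 9.38 and 9.20 at 36 h. In GM12878 it was 7.36 and 7.44, then 7.67 and 7.41, then 8.57 and 8.80. Thus both 36 h arrays lay above both 0 h arrays, and above both 8 h arrays, in 4 of 4 lines.

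With the 4 lines as replicates CD79A was 1.30 ± 0.11 higher at 36 h than at 0 h (log2 difference ± standard error, n = 4 lines), a 2.46-fold rise with an adjusted p of 2.31e-06 in limma, adjusted with the Benjamini-Hochberg method over all 19461 probe sets. Here and below a gene is said to have risen, fallen or changed only where this adjusted p was under 0.05. CR2 also rose, by 0.77 ± 0.11 or 1.70-fold (adjusted p = 0.000555). These 2 were the members that rose of 9, and no member fell, where 1.06% of all probe sets rose. The median change was 0.19 over the members and -0.01 over all probe sets.

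**Figure D1:**
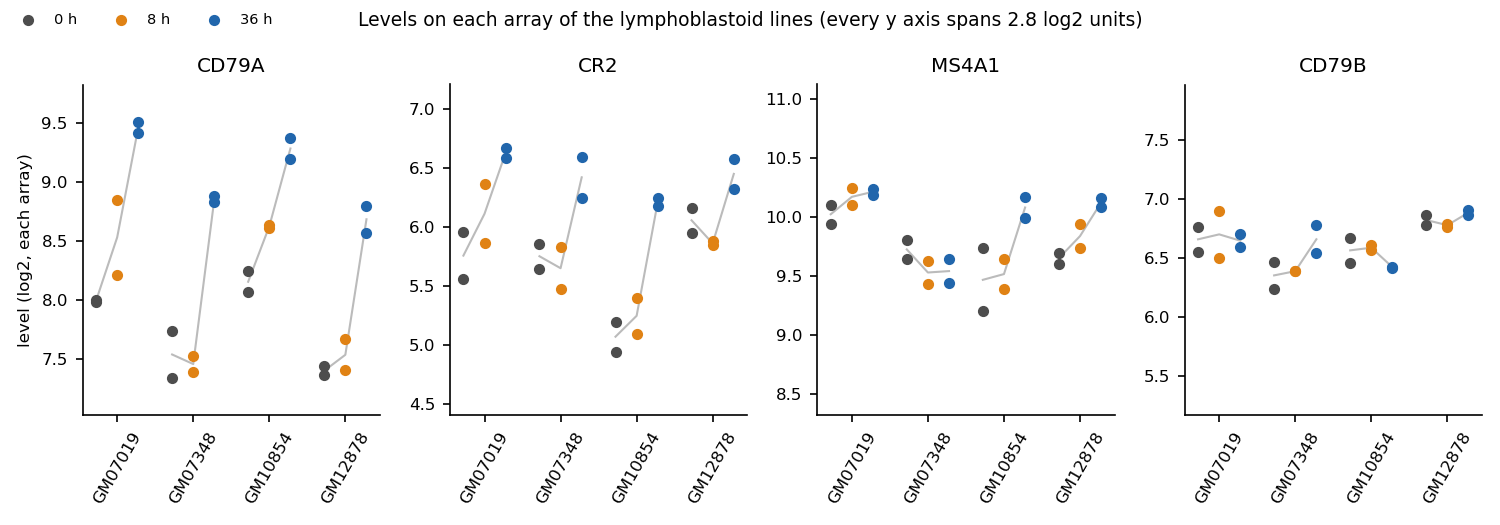
Levels of CD79A, CR2, MS4A1 and CD79B (log2, y axes of equal span) on each array of the 4 lymphoblastoid lines, with 1 point per array coloured by time and a grey line through the means of the 2 arrays. For CD79A and CR2 both 36 h points lie above both 0 h points in every line, for CD79A by 1.13 to 1.47 between the means, while the points of CD79B stay between 6.24 and 6.91.

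CR2, the complement and virus receptor, went from 5.95 and 5.56 on the 0 h arrays of GM07019 to 6.59 and 6.67 at 36 h. In GM10854, where it began lowest, it was 5.20 and 4.94 at 0 h and 6.18 and 6.24 at 36 h. The lines lay closer together at 36 h: the 8 arrays ran from 4.94 to 6.16 (median 5.75) at 0 h and from 6.18 to 6.67 (median 6.45) at 36 h, without overlap. In GM07348 the levels were 5.86 and 5.64 at 0 h and 6.59 and 6.25 at 36 h. GM12878 moved least, from 6.16 and 5.95 to 6.57 and 6.32. In a single line no CR2 change passed, and the differences ran from 0.39 in GM12878, over 0.67 in GM07348 and 0.87 in GM07019, to 1.14 in GM10854 (adjusted p = 0.109).

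The partner chain CD79B did not change with CD79A. Its 8 lymphoblastoid arrays ran from 6.24 to 6.86 (median 6.61) at 0 h and from 6.42 to 6.91 (median 6.65) at 36 h, a difference of 0.05 ± 0.09 (adjusted p = 0.805). Over all 4 lines together the groups overlapped almost fully. Within a line, both 36 h arrays of CD79B lay above both 0 h arrays in 2 of 4 lines (GM07348 and GM12878). They lay below both in 1 (GM10854). Of the inhibitory receptors, CD22 differed by 0.27 ± 0.10 (adjusted p = 0.228) and was higher on both 36 h arrays than on both 0 h arrays in 3 of 4 lines. CD72 ran from 4.52 to 5.13 over all 24 lymphoblastoid arrays, with a difference of 0.00 ± 0.08 (adjusted p = 0.996). Its level was near the array medians and like that of the other lines, so that whether the probe set measured it above background cannot be told.

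MS4A1 was at 9.20 to 10.10 (median 9.71) at 0 h and at 9.44 to 10.24 (median 10.12) at 36 h, a difference of 0.27 ± 0.11 (adjusted p = 0.256). It went up by 0.61 in GM10854, 0.47 in GM12878 and 0.19 in GM07019 and down in GM07348, where both 36 h arrays (9.64 and 9.44) lay below both 0 h arrays (9.80 and 9.64). Without GM07348 the mean difference was 0.42 and passed (adjusted p = 0.0280). Inside the cell the kinases and their adaptor did not pass: SYK differed by 0.01 ± 0.08, BTK by -0.01 ± 0.09 and BLNK, the adaptor that joins them, by 0.19 ± 0.09 (adjusted p = 0.359). BLNK ran from 8.01 to 8.58 at 0 h and from 8.20 to 8.81 at 36 h, and these ranges over all 4 lines overlapped. Within a line, both 36 h arrays of BLNK lay above both 0 h arrays in 3 of 4 lines.

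At 8 h the rise did not pass. At 8 h against 0 h no member passed, where 0.0257% of all probe sets did (5, with 616 at an unadjusted p under 0.05). CD79A was the 1 member with an unadjusted p under that value, with a difference of 0.27 ± 0.11 (unadjusted p = 0.0217, adjusted p = 1), and CR2 differed by 0.06. Both 8 h arrays lay above both 0 h arrays for CD79A in 2 of the 4 lines, GM07019 (by 0.54) and GM10854 (by 0.47). Between 8 h and 36 h CD79A rose by 1.03 ± 0.11 (adjusted p = 0.000102) and CR2 by 0.71 ± 0.11 (adjusted p = 0.00661), 2 of 9 members where 0.277% of all probe sets rose. CD22 lay higher on both 36 h arrays than on both 8 h arrays in 4 of 4 lines, by 0.31, and did not pass (adjusted p = 0.316). The 36 h arrays serve in both comparisons. The CR2 value from 8 h to 36 h was 0.59 (adjusted p = 0.422) from replicate 2 alone and 0.63 (adjusted p = 0.0519) without GM10854.

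Tested alone, each of the 4 lymphoblastoid lines had a rise of CD79A at 36 h against 0 h: GM07019 by 1.47 (adjusted p = 0.000286), GM07348 by 1.32 (0.000874), GM10854 by 1.13 (0.0285) and GM12878 by 1.28 (0.00224), each ± 0.22. No other member passed in these lines, where 0.0719% of all such tests rose. The call in GM10854 was lost without any 1 of the 4 arrays compared (values 1.04 to 1.22, adjusted p up to 0.611) and with all 33297 deposited probe sets tested (0.0709). It was also lost in GM07348 without replicate 2 at 0 h (1.12, adjusted p = 0.188) or replicate 1 at 36 h (1.29, 0.0697), and in GM12878 without replicate 1 (1.25, 0.129) or 2 (1.32, 0.0556) at 0 h or replicate 2 at 36 h (1.17, 0.235). From 8 h to 36 h CD79A rose in GM07348 (1.40) and GM12878 (1.15, adjusted p = 0.0242), where 0.0154% of tests rose. Those calls were lost in GM12878 without any 1 of the 4 arrays (1.02 to 1.28) and in GM07348 without replicate 1 at 36 h (1.38, adjusted p = 0.0701) or replicate 2 at 8 h (1.33, 0.0848). No member passed at 8 h in a single lymphoblastoid line (0.00128% of tests did), with 1 member in GM07019 and 1 in GM10854 at an unadjusted p under 0.05.

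The 36 h changes of the 4 lines were not told apart. In the test of a difference among the lines limma called 0 members and 0 of all probe sets (0%), with 559 probe sets and 0 members at an unadjusted p under 0.05.

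**Figure D2:**
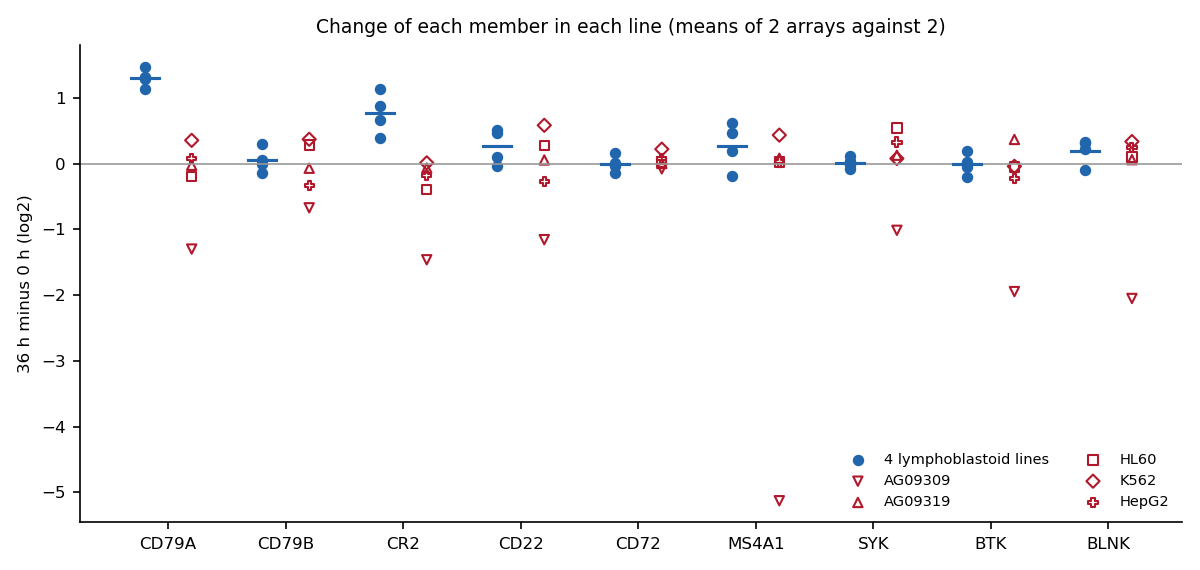
Change of each member from 0 h to 36 h (y axis, log2 difference between the means of 2 arrays) in each of the 9 lines: filled points are the 4 lymphoblastoid lines, with a bar at their mean, and open symbols are the other lines. CD79A and CR2 lie above 0 in every lymphoblastoid line, and the symbols far below 0 are those of AG09309, down to -5.13 for MS4A1.

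The rest of the receptor pathway was followed in 6 lists, of surface partners, immunoglobulin chains, kinases, adaptors, downstream effectors and inhibitory enzymes, with 60 of 68 genes measured. At 36 h against 0 h in the lymphoblastoid lines 2 of these 60 rose and 0 fell, with a median of 0.09, where 1.06% of all probe sets rose and their median was -0.01. The surface partner PTPRC (CD45), a phosphatase that primes the kinases of the receptor, rose by 0.41 ± 0.09 (adjusted p = 0.0318). The adaptor VAV1 rose by 0.34 ± 0.08 (adjusted p = 0.0341). No gene passed in the other lists with all arrays and probe sets, and the smallest p belonged to PRKCB among the kinases (0.20, adjusted p = 0.274), RAC2 among the effectors (0.31, adjusted p = 0.0893) and PTPN22 among the inhibitory enzymes (0.38, adjusted p = 0.154). With the filter on low values, which leaves fewer probe sets to adjust over, RAC2 passed (0.31, adjusted p = 0.0450). The PTPRC call was lost in 6 of 13 alternatives (0.31 to 0.45, adjusted p up to 0.394), among them without GM07019, GM10854 or GM12878 or without either replicate, and that of VAV1 in 7 (adjusted p up to 0.445), among them the same. Without GM07348 PTPN22 passed (0.56, adjusted p = 0.00939). Of 5 immunoglobulin chain genes 1, IGKC, was measured by a probe set with a single symbol, and it differed by -0.03 (adjusted p = 0.894).

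Of 14 measured transcription factors of the B lineage, 3 rose and 0 fell, with a median of 0.06, beside the same 1.06% and -0.01 over all probe sets. IKZF1, which encodes Ikaros, rose by 0.51 ± 0.08 (adjusted p = 0.00323), and IRF8, a factor of B and myeloid cells, by 0.51 ± 0.08 (adjusted p = 0.00341). PAX5, which keeps B cells committed and binds the CD79A promoter, rose by 0.46 ± 0.09 (adjusted p = 0.0104). From replicate 2 alone none of the 3 passed (IKZF1 0.46, adjusted p = 0.276; IRF8 0.48, 0.195; PAX5 0.49, 0.289), and PAX5 did not pass without GM07019 (0.43, 0.0629) or GM10854 (0.41, 0.158). At 8 h none of the 60 genes or the 14 factors passed (0 of each).

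No list of markers of another cell type moved as a whole with CD79A and CR2 in these lines. At 36 h 1 of 8 B cell markers (PAX5) and 2 of 9 pan-leukocyte genes (PTPRC and IKZF1) rose, and 0 of the measured T and NK cell, monocyte, promyelocyte, erythroid, hepatocyte and fibroblast markers passed. The mean of the B cell markers was 7.11 to 7.38 on the 0 h arrays and 7.17 to 7.41 on the 36 h arrays.

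Likeness in pattern was measured with Pearson's r and is a description. Over the 27 group means the 3 genes most like CD79A were TNFRSF17 (0.978), ATP8A1 (0.975) and the member BLNK (0.972), and those most like CR2 were CD80 (0.981), SEPTIN1 (0.968) and IKZF3 (0.967). These points share the gap between the 4 lymphoblastoid lines and the rest. Over the 12 lymphoblastoid means, each line centred on its own mean, CD79A was most like SLC44A2 (0.983), STS (0.981) and MYRF (0.980), and CR2 was most like DUSP10 (0.984), IFIT1 (0.983) and SLC25A17 (0.982). On that scale CD79A and CR2 had r = 0.916 and CD79A and CD79B r = 0.399. CD79A and CR2 were picked for a rise at 36 h in these same lines, so their high r follows in part from that.

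At 0 h the members marked the B cell lines to different degrees. Of 9 members, 6 were higher in the 4 lymphoblastoid than in the 5 other lines, where 2.22% of all probe sets were, and the median difference was 2.19 over the members and 0.01 over all probe sets. Differences were 2.56 ± 0.25 for CD79A (means 7.77 and 5.21, adjusted p = 0.000962), 1.06 ± 0.20 for CD79B (6.60 and 5.54, 0.0225) and 2.13 ± 0.30 for CR2 (5.66 and 3.53, 0.00558). They were 3.21 ± 0.26 for CD22 (7.82 and 4.60, 0.000676), 5.35 ± 0.92 for MS4A1 (9.72 and 4.37, 0.0143) and 3.72 ± 0.40 for BLNK (8.35 and 4.63, 0.00148). CD72 (0.23 ± 0.12, adjusted p = 0.486), SYK (1.48 ± 0.68, 0.393) and BTK (2.19 ± 0.85, 0.281) did not pass.

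Without AG09309 the same 6 passed, and the difference was 6.28 ± 0.17 for MS4A1, 4.09 for BLNK and 2.74 for CD79A. The CD79B call at 0 h was lost in 7 of 20 other settings (adjusted p up to 0.0909), among them without AG09319 (0.999, 0.0566), without any 1 lymphoblastoid line (0.98 to 1.14) and from replicate 2 alone (0.82, 0.0909). That of MS4A1 was lost without GM07019 (5.25, adjusted p = 0.0556) or GM07348 (5.35, 0.0567). At 36 h the same members were higher in the lymphoblastoid lines (2.66% of all probe sets were), by 4.08 ± 0.21 for CD79A, 1.19 ± 0.19 for CD79B, 3.31 ± 0.27 for CR2, 3.58 ± 0.28 for CD22, 6.53 ± 0.22 for MS4A1 and 4.17 ± 0.19 for BLNK. The median over the members was 3.31 and over all probe sets -0.04.

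**Figure D3:**
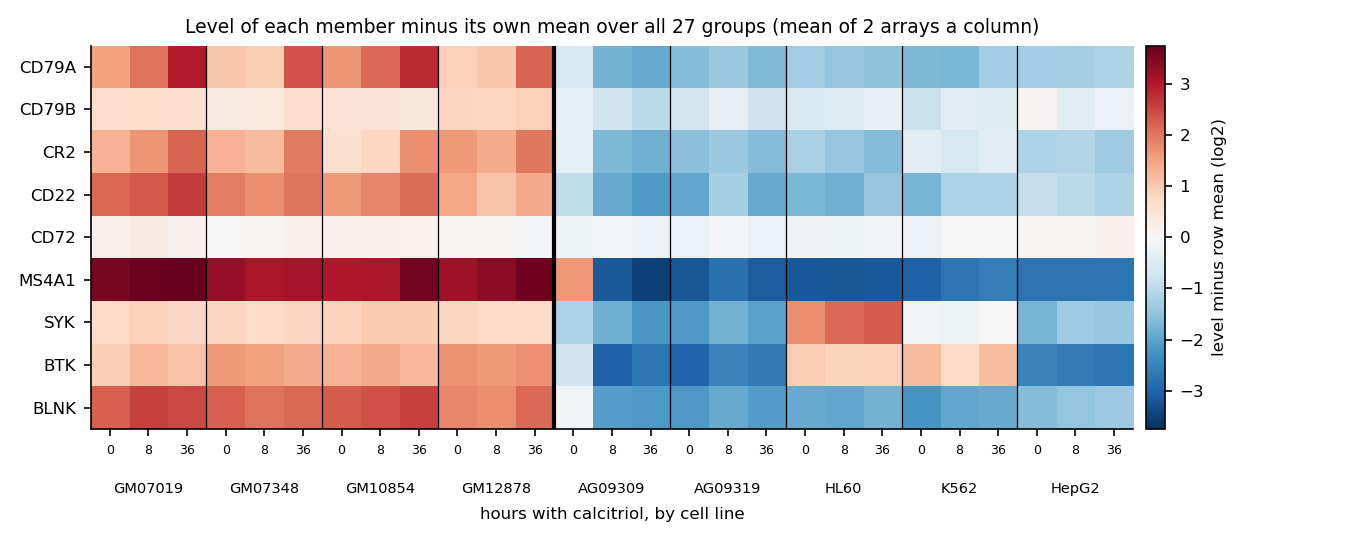
Mean level of each member in the 27 groups (columns, 2 arrays each, by line and hours with calcitriol) minus the member's own mean over the groups (log2, colour scale), so that colours compare groups within a row and not genes. The thick line parts the 4 lymphoblastoid lines from the 5 others; AG09309 at 0 h stands out from its later times in most rows, and SYK and BTK are high in HL60 or K562 as well.

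Among the lymphoblastoid lines the order of levels differed between the genes. For CD79A at 0 h it ran GM10854 (8.16), GM07019 (8.00), GM07348 (7.54) and GM12878 (7.40), of which only the arrays of the last pair overlapped. For CD22 it ran GM07019 (8.19), GM07348 (7.96), GM10854 (7.64) and GM12878 (7.49), with no overlap between neighbours. For CR2 GM12878 was first (6.06) and GM10854 last (5.07), and only GM10854 lay clear of its neighbour. BLNK was at 8.45 to 8.47 in 3 lines, whose arrays overlapped, and at 8.01 in GM12878, whose arrays lay below them.

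CD79B was first in GM12878 (6.82) and last of the 4 in GM07348 (6.35). The arrays of GM07348 (6.47 and 6.24) overlapped those of HepG2 (5.94 and 6.29), the highest of the other lines. MS4A1 was highest in GM07019 (10.02), while GM07348 (9.72), GM12878 (9.65) and GM10854 (9.47) overlapped in turn. In the lines other than AG09309 and the lymphoblastoid lines MS4A1 ran from 3.02 to 3.82 at 0 h and from 3.18 to 4.04 at 36 h. At 0 h CD22, CR2 and BLNK in these lines were likewise below every lymphoblastoid array, with K562 highest for CR2 (4.31 and 3.83) and HepG2 highest for BLNK (mean 4.60).

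The kinases did not follow the B cell pattern. SYK was highest in HL60, at 8.37 and 8.88 at 0 h, 9.02 and 9.02 at 8 h and 9.05 and 9.28 at 36 h, above every lymphoblastoid array (7.48 to 8.02). K562 was next among the other lines, at 6.84 and 6.73 at 0 h, and HepG2 and AG09319 had means of 5.16 and 4.75. Without HL60 the lymphoblastoid lines were higher in SYK by 2.08 ± 0.38 at 0 h (adjusted p = 0.0162) and by 2.22 at 36 h (0.0170). BTK at 0 h was at 7.30 and 7.46 in HL60 and 7.72 and 7.53 in K562, beside a lymphoblastoid range of 7.30 to 8.26, and at means of 3.95 in HepG2 and 3.43 in AG09319. For BTK both leukaemia lines thus overlapped the B cell lines at 0 h. At 8 h HL60 (7.26 and 7.27) and K562 (7.17 and 7.19) lay below the lowest lymphoblastoid array (7.42). At 36 h HL60 (7.30 and 7.36) lay below it (7.49), and K562 (7.85 and 7.33) overlapped the B cell lines. For SYK HL60 lay above and K562 below the B cell lines. The hepatoma and fibroblast lines were lowest for both kinases.

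Whether the 36 h change differed between the classes of lines was tested as a difference of changes, with the line as replicate. No member passed (0 of 9), where 0.0103% of all probe sets did (2, with 1430 probe sets and 2 members at an unadjusted p under 0.05). CD79A changed by 1.30 in the lymphoblastoid mean and -0.22 in the mean of the others, a difference of 1.52 ± 0.25 (adjusted p = 0.196), and CR2 by 0.77 and -0.42, a difference of 1.19 ± 0.26 (adjusted p = 0.375). The other lines include AG09309, whose 0 h arrays held leukocyte transcripts. Without it the CD79A difference was 1.25 ± 0.14 and passed (adjusted p = 0.00373), while CR2 did not (0.93 ± 0.16, adjusted p = 0.191). CD79A also passed from replicate 2 alone (1.61, adjusted p = 0.0376) and did not from replicate 1 alone (1.43, adjusted p = 0.452), where no member passed (0). With the 8 h arrays as the base, an alternative chosen after seeing the data, the CD79A difference was 1.03 ± 0.17 (adjusted p = 0.151).

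In AG09309 all members but CD72 were higher at 0 h than at the later times. CD72 had means of 4.62 at 0 h, 4.70 at 8 h and 4.55 at 36 h. MS4A1 was at 8.15 and 8.07 at 0 h, 3.38 and 3.29 at 8 h and 3.10 and 2.85 at 36 h. BLNK went from 6.17 and 6.06 to 4.16 and 4.13 and then 4.07 and 4.06, and BTK from 5.63 and 5.76 to 3.396 and 3.45 and then 3.63 and 3.86. In each of these the 0 h arrays lay far above the later ones. CR2 was at 4.25 and 4.01 at 0 h, 2.74 and 2.84 at 8 h and 2.86 and 2.48 at 36 h. CD79A was at 5.80 and 5.998, then 4.85 and 4.61, then 4.40 and 4.80. Both again had their 0 h arrays above all later ones.

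At 36 h against 0 h 8 of 9 members fell in AG09309, where 2.26% of all probe sets fell, with a median of -1.30 over the members and 0.03 over all probe sets. The changes were -5.13 ± 0.21 for MS4A1 (adjusted p = 5.87e-20), -2.05 ± 0.19 for BLNK, -1.95 ± 0.28 for BTK, -1.46 ± 0.27 for CR2 and -1.30 ± 0.22 for CD79A. CD22 (-1.16 ± 0.27), SYK (-1.01 ± 0.22) and CD79B (-0.67 ± 0.19) fell too, and CD72 differed by -0.08. The CD79B call was lost without any of 3 of the 4 arrays (lowest size -0.45, adjusted p up to 0.417) and after quantile normalization (-0.54, 0.0509). That of CD22 was lost without replicate 2 at 0 h (-1.09, 0.0945) or at 36 h (-1.002, 0.123), and that of SYK without replicate 1 at 36 h (-0.89, 0.0710).

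At 8 h 5 members had fallen, where 1.42% of all probe sets did: MS4A1 by 4.77, BTK by 2.27, BLNK by 1.97, CR2 by 1.34 and CD79A by 1.17. The CR2 call was lost without replicate 1 at 0 h (-1.22, adjusted p = 0.0809). CD22 (-0.94, adjusted p = 0.0853), SYK (-0.68) and CD79B (-0.40) did not pass. From 8 h to 36 h no member passed (0.380% of all probe sets did, 74, with 1902 probe sets and 0 members at an unadjusted p under 0.05). The 8 h and 36 h comparisons share the 0 h arrays.

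**Figure D4:**
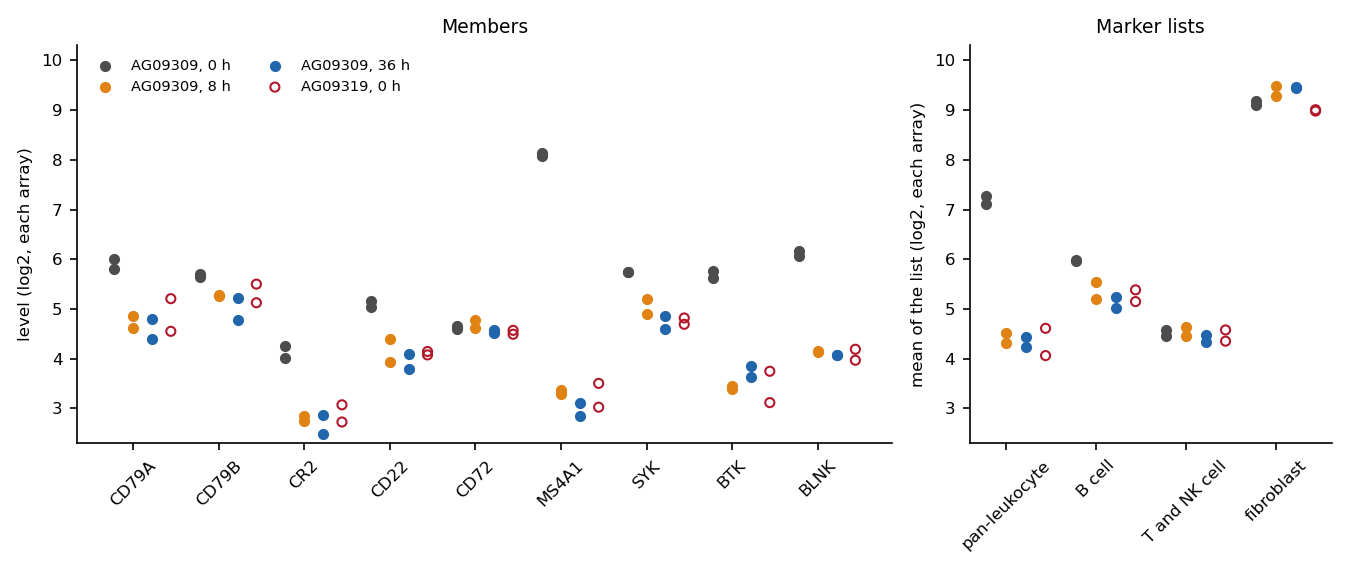
Level of each member (left) and mean level of 4 marker lists (right) on each array (log2) of AG09309 at 0, 8 and 36 h and of the other fibroblast line, AG09319, at 0 h, with 1 point per array. For all members but CD72, and for the pan-leukocyte and B cell lists, the AG09309 0 h points lie above all its later points; for MS4A1 they are at 8.15 and 8.07, and the fibroblast list is at 9.18 and 9.10 at 0 h and between 9.28 and 9.49 later.

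Against the other fibroblast line at 0 h, 7 of 9 members were higher in AG09309, where 3.57% of all probe sets were, with medians of 1.02 over the members and -0.02 over all probe sets. The differences were 4.84 for MS4A1, 2.26 for BTK, 2.04 for BLNK, 1.23 for CR2, 1.02 for CD79A, 0.99 for CD22 and 0.98 for SYK (standard errors 0.19 to 0.28). CD79B (0.36, adjusted p = 0.362) and CD72 (0.09) did not pass. The CD22 call was lost without any 1 of the 4 arrays (adjusted p up to 0.145), and those of CR2 and CD79A without replicate 1 of AG09319 (1.06, adjusted p = 0.0617 and 0.69, 0.138). AG09309 stayed below the mean of the lymphoblastoid lines at 0 h in every member, by 1.61 for MS4A1, 1.53 for CR2, 1.87 for CD79A, 1.95 for SYK, 2.12 for BTK, 2.23 for BLNK, 2.72 for CD22, 0.93 for CD79B and 0.25 for CD72.

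Leukocyte markers moved with the members in AG09309. The mean of 9 pan-leukocyte genes was 7.28 and 7.11 on its 0 h arrays, 4.52 and 4.32 at 8 h and 4.23 and 4.43 at 36 h, against 9.18 to 9.49 on the lymphoblastoid 0 h arrays, and 8 of the 9 fell at 36 h. LCP1, an actin bundler of white blood cells, went from 9.54 to 3.67 between 0 h and 36 h and CD53, a leukocyte tetraspanin, from 8.65 to 3.15. Of 8 B cell markers 5 fell at 36 h (PAX5, FCRLA, CD37, POU2AF1 and BLK), and their mean went from 5.98 and 5.97 to 5.03 and 5.24. Of 12 T and NK cell markers 0 were higher than in AG09319 at 0 h and 1, LCK, fell at 36 h. The mean of the 11 fibroblast genes was 9.18 and 9.10 at 0 h and 9.28 to 9.49 on the later arrays. Both 0 h arrays thus lay below all others. At 36 h 2 of the 11 rose and 0 fell, where 516 of all 19461 probe sets rose and 439 fell. The 2 were the receptor gene PDGFRB, by 0.91 ± 0.20, and the collagen gene COL3A1, by 0.90 ± 0.20. POSTN went the other way without passing, from a mean of 10.24 at 0 h to 9.62 at 36 h. In bulk samples fewer cells of a type and less RNA per cell cannot be told apart, and the part of leukocyte RNA in these changes was not tested. Where the leukocyte transcripts on the 0 h arrays came from was not tested either. The falls in AG09309 therefore cannot be read as a response of the fibroblasts to calcitriol.

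In the wider pathway 18 of the 60 genes fell at 36 h in AG09309, 1 rose and the others did not pass, with a median of -0.28, where 2.26% of all probe sets fell and their median was 0.03. Of the 14 factors 5 fell. The largest falls among the kinases and inhibitory enzymes were those of PRKCB (-2.07 ± 0.21), a kinase downstream of BTK, and PTPN6 (-2.00 ± 0.21), the phosphatase recruited by CD22 and CD72.

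In AG09319, HL60, K562 and HepG2 no member passed at 36 h against 0 h, where 1.81% of all such tests did (members at an unadjusted p under 0.05 numbered 0, 1, 2 and 0). None passed at 8 h against 0 h (0.140% of tests) or from 8 h to 36 h (18.0% in AG09319 and 0.665% of tests in the others), with at most 2 members of a line at an unadjusted p under 0.05. The largest values at 36 h were 0.58 ± 0.27 for CD22 in K562 (adjusted p = 0.597) and 0.54 ± 0.22 for SYK in HL60 (adjusted p = 0.446). In AG09319 at 8 h the arrays were unlike, with SYK at 4.67 and 5.61 and CD79A at 4.73 and 5.48, the higher value on the array that stood apart. With that array as the only 8 h array 5 members passed as higher at 8 h than at 0 h, among them SYK (0.86) and CD22 (0.93), where 28.4% of all probe sets did. With it 5 members also passed as lower at 36 h than at 8 h, among them CD22 (-0.87) and SYK (-0.73), where 30.7% of all probe sets did. Without it no member passed in either comparison (0), where 0.0206% and 2.63% of all probe sets did.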

How the data were processed

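Total RNA (100 ng per array, per the labels' protocols) from 54 samples was measured on Affymetrix Gene 1.0 ST arrays. The authors deposited log2 values made, per the submitters' processing notes, with Affymetrix Expression Console 1.0 and RMA; a joint or separate summary of the arrays is not stated in those notes. Of 33297 deposited probe sets, 21214 had an entry in the probe annotation (19461 with 1 symbol, 1753 with several, which were left out of the main tests, and 19429 matched by gene ID). No pair of arrays was identical (0). No detection calls were used, so low levels cannot be told from background, and levels of different genes were not compared. Promoter sequences are those of RefSeq, and a missing entry was not looked for elsewhere.

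Groups were taken from each sample's cell line and time. The limma package (3.58.1; R 4.3.3, with the data.table package, version 1.17.8) gave two-sided moderated statistics and Benjamini-Hochberg adjustment over 19461 probe sets at 0.05. For the lymphoblastoid lines the 12 means of line and time were fitted with terms for time and line. Classes of lines were compared on 9 line means, 4 against 5. Single lines, the differences among lymphoblastoid lines and the 2 fibroblast lines were tested in 1 fit of 27 groups to 54 arrays (27 residual and 8.89 prior degrees of freedom), so their standard errors are shared by all groups. The fits were checked on simulated data. Tables and plots used Python 3.11.15, numpy 2.4.6, pandas 2.3.3 and matplotlib 3.10.9. The number of arrays limits the precision.

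All 9 members were named. From the 6 receptor pathway lists and the transcription factor list the genes past the threshold in the lymphoblastoid lines at 36 h were named, or the 1 with the smallest p, and for each member that changed there the 3 most correlated genes. Genes named for AG09309 and the marker genes LCP1, CD53, LCK, PDGFRB, COL3A1 and POSTN were chosen after their values were seen. The members, lists and markers (B cell, pan-leukocyte, T and NK cell, promyelocyte, monocyte, erythroid, hepatocyte and fibroblast) were chosen with earlier results of these data known. Alternatives were quantile normalization, median centring, a filter on low values (a group mean of at least 6 somewhere), 1 probe set per gene, a test of all 33297 probe sets, a replicate block, separate fits and leaving out arrays, lines or the 3 arrays that stood apart.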

Additional observations from a re-analysis of the deposited data

Results flagged for a closer look

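Lines were compared within the 4 lymphoblastoid and the 5 other lines for the level of each member at 0 h and 36 h and for its change from 0 h to 36 h. In 8 of 54 such groups 1 line stood apart from the others by more than Dixon's limit. By chance about 1 in 20 independent groups would pass this limit. The level at 0 h and the change share the 0 h arrays, so the 8 groups cannot be set against that rate. AG09309 accounted for 6 of the 8, and the leukocyte transcripts on its 0 h arrays were known beforehand. Its MS4A1 level at 0 h was 8.106 against 3.721 in the nearest other line, and its MS4A1 change was -5.13 against 0.028. Its BLNK level at 0 h was 6.118 against 4.599 and its BLNK change -2.052 against 0.061. Its change in CR2 was -1.462 against -0.397 and in BTK -1.947 against -0.226. The other two concerned GM12878, whose BLNK level at 0 h was 8.007 against 8.454 in the nearest lymphoblastoid line and whose CD72 level at 36 h was 4.714 against 4.903.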

How the results depend on the processing

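Among alternatives that leave out no single array or line, 82 counts of members stayed within 1.5 times of those reported, 2 were lower and 2 higher. No value that passed changed its sign (0). Values that did not pass changed sign 46 times, most often those of SYK, BTK, CD72 and CD79B, and 36 moved by more than their standard error. With all 33297 deposited probe sets tested, 1 member, CD79A, rose from 8 h to 36 h in the lymphoblastoid lines. Sample titles have 2 styles; in the 6 lines of the first (without GM12878, AG09319 and HepG2) 3 members were higher in the lymphoblastoid lines at 0 h (CD79A, CD22 and BLNK), while MS4A1 (4.79, adjusted p = 0.175), CR2 (1.71, 0.0787) and CD79B (1.09, 0.0599) did not pass. With a fit of only each line's own arrays, 4 calls of members were made from 8 h to 36 h, against 2 in the shared fit. The share of all probe sets that passed is not given for the alternatives of this paragraph. Its counts thus cannot be told from a general change in the number of calls. Replicate numbers did not pair the samples, since only 14 of 27 pairs of times had correlated deviations over 0.1 (from -0.414 to 0.585). All 3 were over 0.1 in 3 of 9 lines. With the replicate block 2 members, CD79A (adjusted p = 0.00103) and CR2 (0.0399), differed in their 36 h change between the classes. BTK was higher in the lymphoblastoid lines at 36 h (2.56, adjusted p = 0.0208). With the block these class tests used 1 value per line and replicate instead of 1 mean per line. Their smaller adjusted p-values thus cannot be read as an effect of pairing.

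Leaving out 1 replicate or line gave 2 to 3 members in the lymphoblastoid lines at 36 h, 0 to 0 at 8 h, 1 to 2 from 8 h to 36 h, 4 to 7 for levels at 0 h, 6 to 7 at 36 h and 0 to 1 for the difference of changes. In single lines leaving out 1 array gave 10 to 13 calls at 36 h, 4 to 11 at 8 h and 1 to 7 from 8 h to 36 h, against 12, 5 and 2 with all arrays. For AG09309 against AG09319 it gave 4 to 6, and for differences among the lymphoblastoid lines 0 to 0. The highest single-line counts at 8 h and from 8 h to 36 h came without replicate 1 of AG09319 at 8 h. That leaves the array that stood apart, for which the shares of all probe sets are given above. For most other fits no such share is given, so their counts are not read as results about the members. The causes were not tested. CD72 dropped out under the filter on low values. Each single-line value rests on 2 arrays a group, signal over background is unknown, and the 8 h levels and the 8 h base were alternatives added after the data were seen.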
